A study of Mus musculus with 18 samples.

Results

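Fragments of 28S ribosomal RNA were examined in 4 small RNA libraries of mouse sperm, 2 labelled wild type (WT) and 2 labelled Isca2 -/- (knockout, KO). A fragment was a distinct sequence of 20 to 45 nucleotides (nt) whose deposited annotation had 28S-rRNA as its first name. This rule took 6913 of the 207217 distinct sequences found in the 4 libraries. It took 1697 in WT replicate 1, 3108 in WT replicate 2, 3700 in KO replicate 1 and 3853 in KO replicate 2. Isca2 encodes a mitochondrial protein that helps to assemble iron-sulfur clusters. The labels give no age, number of mice or collection step for the sperm, and the series' protocol describes embryos from heterozygous parents. Nothing in them says that the replicates were separate animals, so p-values measure only the spread between these libraries, which may be technical. The oocyte and blastocyst samples of the series were not analysed here.

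The 28S rRNA is the long RNA of the large ribosomal subunit. It is cut from the 45S precursor together with the 18S and 5.8S rRNAs, and its folded domains form the site of peptide bond formation. Mature sperm carry little intact ribosomal RNA. Their small RNA is rich in fragments of tRNA and rRNA, which have been studied as possible carriers of paternal effects to the embryo. A total for a class of fragments can come from many cleavage products or from very few. For that reason the fragments are described below by length, ends, genome match and number as well as by their sum. No sequence is printed, and fragments are named by length and by their rank over the libraries in mean CPM, the level per 1e6 library reads. The mean is over the 4 libraries, each weighted equally.

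Depth was 205993 reads in WT replicate 1, the shallowest library, and between 703036 and 746812 in the remaining libraries. Fragments of tRNA-Glu, abundant in mature sperm, were present at 7.59% to 17.5% of reads. Those of tRNA-Gly, fixed as a marker alongside tRNA-Glu, were at 0.88% to 1.73%. Of 3 microRNAs fixed as markers of spermatogenic cells (mir-34c, mir-34b and mir-449a), 0 had a read in any library. Of 5 epididymal microRNAs and 8 of blood or other somatic cells, at most 2 of each list had a read, with at most 5 reads per list and library. These microRNA counts were too sparse to check the cell type. WT replicate 2 stood apart from the others in its share of 28S reads, so the group differences that move most without it are given both ways. A fit that leaves out a WT library has 1 library in that arm. Its spread then comes from the KO pair, and the lone library is assumed to vary likewise.

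28S was the most abundant single annotation name and took a larger share of the reads in the WT libraries than in the KO libraries. The share was 25.2% in WT replicate 1 (51885 reads, 95% Wilson interval 25.001 to 25.4%) and 55.2% in WT replicate 2 (388060 reads, 55.1 to 55.3%). It was 19.3% in KO replicate 1 (135981 reads, 19.2 to 19.4%) and 21.0% in KO replicate 2 (156938 reads, 20.9 to 21.1%). These intervals cover counting error only. The groups did not overlap, and WT replicate 1 lay closer to both KO libraries than to WT replicate 2. The mean was 40.2 ± 21.2% in WT (SD, n = 2) and 20.2 ± 1.18% in KO (n = 2; exact permutation test, two-sided, p = 0.333, the smallest that 2 against 2 can give). The difference, KO minus WT, was -20.02 percentage points, and -5.01 without WT replicate 2. Set against the other reads of the same library, 28S gave 0.34 and 1.23 reads per other read in WT, and 0.24 and 0.27 in KO.

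In the fit over all annotation names the 28S class was not called. KO relative to WT gave -1.29 in log2 fold change, with an SE of 0.68 and an adjusted p of 0.848 by the edgeR quasi-likelihood test over 64 names. Of those names, 0% were called higher and 0% lower at an adjusted p under 0.05. Unadjusted, 3 names (4.69%) passed 0.05, and 28S was not among them. DESeq2 and limma-voom called 0 names as well. Leaving out WT replicate 2 moved the log2 fold change to -0.23 (SE 0.18, adjusted p = 0.621), and leaving out WT replicate 1 moved it to -1.86 (SE 0.13, adjusted p = 0.235).

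The length profile had a main peak at 26 nt and a second at 22 nt. Fragments of 26 nt held 59.7% and 62.5% of 28S reads in WT replicates 1 and 2, and 37.3% and 57.9% in KO replicates 1 and 2. Fragments of 22 nt held 16.8% and 22.7% in WT, and 22.7% and 9.37% in KO. The first peak was thus lowest in KO replicate 1 and the second lowest in KO replicate 2. No other length reached 10% of 28S reads in any library. Several other lengths were higher as a share in both KO libraries, among them 20 nt (3.47% and 3.90% in WT, 7.44% and 6.15% in KO) and 30 nt (3.03% and 0.98% in WT, 7.36% and 4.41% in KO). At 30 nt this also held in CPM, whose totals include the 28S reads, with 7622 and 5436 in WT against 14239 and 9271 in KO. At 20 nt it did not, since WT replicate 2 had the highest level at 21514 CPM, above 14384 and 12924 CPM in KO and 8743 CPM in WT replicate 1.

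The distinct fragments were spread far more evenly over length than the reads. Each length from 20 to 45 nt had between 127 and 432 fragments, with the most at 20 nt and the fewest at 45 nt. Fragments of 31 to 45 nt made up 46.5% of all distinct fragments but 4.65% and 1.89% of 28S reads in WT and 6.22% and 5.44% in KO. In CPM this long group was nearly level, at 11724 and 10423 in WT and 12028 and 11427 in KO. CPM divides by totals that include the 28S reads, which were 55.2% of the total in WT replicate 2. A level against the reads that were not 28S was not computed for this group. The mean read length was 25.6 and 24.9 nt in WT and 25.3 and 25.8 nt in KO, with overlapping groups (exact permutation p = 0.667). With each distinct fragment counted once it was 30.8 and 29.8 nt in WT, and 30.2 and 29.8 nt in KO.

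A single fragment of 26 nt, rank 1, held much of the class. It had 30716 reads in WT replicate 1 and 240650 in WT replicate 2, against 49293 and 89591 in KO. As a share of the whole library this was 14.9% (95% Wilson interval 14.8 to 15.1%) and 34.2% (34.1 to 34.3%) in WT, and 7.01% (6.95 to 7.07%) and 12.0% (11.9 to 12.1%) in KO. It was the most abundant sequence of WT replicates 1 and 2 and of KO replicate 2, whereas a tRNA-Glu fragment of 21 nt led KO replicate 1. Within 28S it made up 59.2% and 62.0% of reads in WT, and 36.2% and 57.1% in KO. Both KO libraries lay below both WT libraries, and KO replicate 2 was closer to WT replicate 1 than to WT replicate 2. By edgeR over all sequences, its change in KO was -1.94 on the log2 scale with an SE of 1.17 (adjusted p = 0.535), and -0.77 with an SE of 1.03 without WT replicate 2.

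The next 3 fragments were shorter forms that began at the same base as the 26 nt fragment. Rank 2, of 22 nt, had 41448 and 123911 CPM in WT, and 42625 and 18243 CPM in KO. KO replicate 1 therefore lay above WT replicate 1, and the groups overlapped (log2 fold change -2.03, SE 1.12, adjusted p = 0.497, edgeR). Rank 3, of 20 nt, had 8010 and 19841 CPM in WT, and 12952 and 10806 CPM in KO. Rank 4, of 21 nt, had 7947 and 17146 CPM in WT, and 10075 and 7999 CPM in KO. For ranks 3 and 4 both KO libraries lay between the WT libraries. Without WT replicate 2 the log2 fold change of rank 2 was -0.54, and those of ranks 3 and 4 went from -0.80 and -1.03 to 0.46 and 0.08, the opposite sign (edgeR). Rank 6, a form of 23 nt with the same start, had 1413 and 2135 CPM in WT, and 2726 and 2365 CPM in KO, and was the only one of these forms with both KO libraries above both WT libraries. With the TMM scaling of the edgeR fit, WT replicate 2 was instead the highest, and the log2 fold change was 0.02 with an SE of 0.88 (adjusted p = 0.997).

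Of the other leading fragments, ranks 5 and 7 to 9 came from 2 further stretches of the 28S RNA. A stretch here is the set of fragments that overlap its leading fragment by 15 bases or more without a mismatch. Rank 5, of 30 nt, led the second stretch and had 5345 and 3337 CPM in WT, and 12274 and 7298 CPM in KO. Rank 7, of 29 nt, began 1 base further in and ended at the same base, with 2316 and 2213 CPM in WT, and 2069 and 1942 CPM in KO. The longer form was thus higher in both KO libraries and the shorter form lower in both. Rank 8, of 27 nt, led the third stretch with 1791 and 1565 CPM in WT, and 2015 and 2462 CPM in KO. Rank 9, of 28 nt and 1 base longer at the 3′ end, had 2092 and 1649 CPM in WT, and 1826 and 1358 CPM in KO. Rank 10, of 27 nt, belonged to the first stretch, beginning 1 base before the rank 1 fragment, and had 2112 and 1168 CPM in WT, and 1207 and 1841 CPM in KO. None of ranks 5 and 7 to 10 was called in the fit over all sequences (log2 fold changes 0.82, -0.60, -0.001, -0.63 and -0.45, adjusted p of at least 0.812, edgeR).

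Fragments of the first stretch shared a start far more than an end. The stretch had 164 fragments, 2.37% of the distinct 28S fragments, and held 85.3% and 92.7% of 28S reads in WT, and 73.7% and 78.2% in KO. Of its reads, 97.6% and 98.9% in WT and 97.7% and 97.6% in KO began at the same base. A start 1 base earlier had 0.34% to 1.26% of them, and a start 1 base later 0.53% to 0.81%. The 3′ ends fell on few positions. The end of the 26 nt fragment took 71.4% and 67.8% of the stretch's reads in WT, and 50.9% and 75.1% in KO. The end 4 bases before it took 19.5% and 24.4% in WT, and 30.2% and 11.2% in KO. The ends 5 and 6 bases before it took 3.38% to 9.12% each.

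Among forms with the common start, the lengths of 24 and 25 nt were nearly empty. Of the near-empty forms, those of 24 and 27 nt would end in A and that of 25 nt would not, while the 23 nt form, which had reads, ends in A. The library kit and trimming of these files are not given in the sources used here. Whether an A at the 3′ end was removed before deposit was not tested, and the lengths, 3′ ends and ratios of forms are those of the sequences as deposited. The 25 nt form had 0 reads in all 4 libraries, under any annotation, and the 24 nt form had 2 reads in KO replicate 2 and 0 in the other libraries. On either side, the 23 nt form took 0.42% to 1.91% of the stretch's reads and the 26 nt form 49.2% to 73.0%. The 27 nt form had at most 2.84 CPM of 28S-annotated reads, and the 28 nt form had 1243 and 515 CPM in WT, and 466 and 300 CPM in KO. For the 28 nt form both KO libraries were below both WT libraries. The ratio of the 26 nt to the 22 nt fragment was 3.60 and 2.76 in WT, and 1.64 and 6.58 in KO, so that the KO libraries lay on opposite sides of the WT libraries. The ratio of the 26 nt to the 20 nt fragment was 18.6 and 17.3 in WT, and 5.41 and 11.1 in KO, with no overlap.

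Few fragments ended in A. Of the distinct 28S fragments, 5.95% and 5.18% in WT and 6.65% and 7.19% in KO had A as the last base, although A made up 21.6% of all bases of these fragments. The same was seen in sequences that were not 28S, of which 5.79% to 7.58% ended in A. By contrast 41.0% to 44.7% of distinct 28S fragments ended in C. At the 5′ end no base was so rare, with G first in 33.1% to 34.3% of distinct fragments and A in 19.7% to 20.3%. By reads, G was first in 89.3% and 94.9% in WT and 81.3% and 84.4% in KO, the first base of the rank 1 fragment being G.

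Taking fragments by their ends gave the same picture without an overlap rule. The 6913 fragments had 1962 different starts (by their first 15 bases) and 1642 different ends (by their last 15 bases). The leading start, with 18 fragments of 20 to 43 nt, had 209721 and 506007 CPM in WT, and 139301 and 160288 CPM in KO. The second start, led by rank 5, had 5748 and 3754 CPM in WT, and 13236 and 8015 CPM in KO. The third, led by rank 8, had 4151 and 3286 CPM in WT, and 4095 and 4034 CPM in KO. The leading end was that of rank 1, with 153442 and 346661 CPM in WT, and 72558 and 123355 CPM in KO. The next ends were those of rank 2 (41909 and 124793 CPM in WT, 43138 and 18478 CPM in KO) and rank 3 (8088 and 19916 CPM in WT, 13012 and 10866 CPM in KO). Only the leading start and the leading end had both KO libraries below both WT libraries among these 6 groups.

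On library totals, ranks 1 and 2 together were as large as the whole difference between the groups. In CPM the 28S mean of KO was below that of WT by a difference of -200159, and rank 1 alone accounted for -150672, or 75.3%. Ranks 1 and 2 together gave -202917, or 101%. Without WT replicate 2 the difference was -50109 CPM, of which rank 1 alone gave -54077 (108%) and ranks 1 and 2 gave -65091 (130%). The share was also 101% for the 10 leading fragments and 102% for the 100 leading fragments. With the 10 leading fragments taken out, 28S stood at 30292 and 36712 CPM in WT, and 35518 and 35866 CPM in KO, with overlapping groups. The log2 fold change of the class was then -0.19 (SE 0.30, adjusted p = 0.909, edgeR), against -1.29 with them and -0.98 without rank 1 alone.

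The same fragments also made the difference between libraries of 1 group. WT replicate 2 exceeded WT replicate 1 by 300100 CPM, of which rank 1 made 64.4% and rank 2 made 27.5%, and the first stretch as a whole made 98.9%. Between KO replicates 2 and 1 the total differed by 16751 CPM. That small net value was made of differences of 49860 CPM in rank 1 and -24382 CPM in rank 2. KO replicate 1 lay below WT replicate 1 by -58484 CPM in total, -79007 CPM in rank 1 and, in the other direction, 1177 CPM in rank 2. Rank 1 was the only one of the pair that separated the groups in every pairing of a KO with a WT library.

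Outside the first stretch, the direction of the difference depended on the denominator. The 6749 remaining fragments held 3.70% and 4.03% of library reads in WT, and 5.08% and 4.59% in KO, without overlap. As a share of the reads outside the first stretch, the same fragments held 4.72% and 8.26% in WT, and 5.92% and 5.49% in KO. On this scale WT replicate 2 was the highest and the groups overlapped. Against 18S reads, another rRNA of the same precursor, they gave 1.33 and 1.42 reads per 18S read in WT, and 1.71 and 1.62 in KO.

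Which of the smaller stretches differed most between the groups depended on WT replicate 2 and on the denominator. The second stretch, of 62 fragments, had 9151 and 7057 CPM in WT, and 17042 and 11530 CPM in KO, with a KO mean 1.76 times the WT mean, and 1.56 times without WT replicate 2. Its reads per 18S read were 0.33 and 0.25 in WT, and 0.57 and 0.41 in KO. Per 1e6 reads that were not 28S it had 12232 and 15750 in WT, and 21128 and 14598 in KO, with overlapping groups. Its leading start held 62.8% and 53.2% of the stretch in WT, and 77.7% and 69.5% in KO. The start 1 base later had 27.9% and 35.2% in WT, and 12.9% and 18.4% in KO. The seventh stretch, of 215 fragments, had 2442 and 5921 CPM in WT, and 1700 and 1664 CPM in KO, with a KO mean 0.40 times the WT mean, and 0.69 times without WT replicate 2. The fourth and sixth stretches had KO means 1.56 and 1.11 times those of WT, and 1.63 and 1.61 times without that library. The third stretch, of 164 fragments, had 8559 and 7941 CPM in WT, and 7408 and 7205 CPM in KO, a ratio of 0.89. Per 1e6 reads that were not 28S its ratio was 0.63, and 0.80 without WT replicate 2. These stretches were built after their values were known and have no test.

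Most distinct fragments matched the genome, while most 28S reads did not. Of the 6913 fragments, 4508 (65.2%) carried the genome-match flag. Per library the flagged share of distinct fragments was 65.1% and 64.1% in WT, and 66.8% and 67.9% in KO. By reads it was 9.30% and 4.59% in WT, and 19.5% and 15.8% in KO, with no overlap (exact permutation p = 0.333, the smallest possible). Of the 10 leading fragments 2 were flagged, ranks 5 and 7, both of the second stretch, and no fragment of the first stretch with a read in these libraries was flagged. The flag covered 99.7% of reads in the second stretch, 0.11% to 0.45% in the third, and 39.8% to 53.3% in the seventh.

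Flagged fragments had a lower GC content than unflagged ones and, on library totals, a different direction. Flagged and unflagged fragments had nearly the same mean length (30.2 and 30.6 nt), while their mean GC content was 53.5% and 65.6%. Flagged reads amounted to 23428 and 25349 CPM in WT, and 37689 and 33117 CPM in KO, higher in both KO libraries. Against the reads outside the first stretch they were instead highest in WT replicate 2, and the groups overlapped. Of the 28S reads outside the first stretch, 63.3% and 62.8% were flagged in WT, and 74.2% and 72.2% in KO. Unflagged reads outside the first stretch amounted to 13602 and 14996 CPM in WT, and 13090 and 12752 CPM in KO, lower in both. Counted only over flagged 28S fragments, the class had a log2 fold change of 0.16 (SE 0.26, adjusted p = 0.883, edgeR), the opposite sign to the whole class.

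The number of distinct fragments at equal reads was higher in the KO libraries. As found, it was 1697 and 3108 in WT, and 3700 and 3853 in KO. At an equal 51885 reads of 28S, the number in WT replicate 1, the expected number was 1697 and 999 in WT, and 2326 and 2302 in KO (exact permutation p = 0.333, the smallest possible). WT replicate 2, with the largest number of 28S reads, thus had the fewest fragments at equal reads. Outside the first stretch, at an equal 7628 reads, the numbers were 1629 and 1474 in WT, and 1618 and 1781 in KO. There the groups overlapped. To reach 90% of its 28S reads, WT replicate 1 needed 15 fragments and WT replicate 2 needed 4, whereas the KO libraries needed 100 and 90.

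A small core of fragments was shared by all libraries and held nearly all reads. Fragments seen in all 4 libraries numbered 775, or 11.2%, and held 97.7% and 98.7% of 28S reads in WT, and 94.7% and 94.7% in KO. Fragments seen in 1 library only numbered 3887, or 56.2%, and held 0.41% to 1.42% of reads. Of the distinct fragments in a library, 59.8% and 46.2% in WT and 42.9% and 39.1% in KO had a single read. Both KO libraries and neither WT library had 570 fragments, with at most 22 reads, and both WT libraries and neither KO library had 74, with at most 7. Over all classes the libraries held 32972 and 44997 distinct sequences in WT, and 71430 and 92432 in KO. Of the counts by library, that in all 4 libraries was also made over all sequences, with 4896 of 207217. The others were not made over all sequences, and none of these counts is read as a result about 28S. WT replicate 1 had the lowest depth, which limits how many fragments it could share.

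No 28S fragment was called in the fit over all sequences. Of the 6913 fragments, 413 passed the filter on low counts and were tested among 2877 sequences, and 0 were called higher or lower (edgeR, adjusted p). Of all sequences tested, 0.348% were called higher and 0.0695% lower. Unadjusted, 56 of the 413 had a p under 0.05, a share of 13.6% beside 11.2% of all sequences. Of these, 17 were higher (4.12%, beside 5.28% of all) and 39 lower (9.44%, beside 5.91% of all). DESeq2 called 3 of them, all lower (0.726%), beside 0.556% of all sequences in either direction and 0.278% lower, and limma-voom called 0. Without WT replicate 1, with WT replicate 2 alone in its arm, edgeR called 86 of 613 tested fragments. That is 14.0% of them, beside 14.2% of all sequences in the same fit. By direction, 19 were higher (3.10%, beside 6.79% of all) and 67 lower (10.9%, beside 7.42% of all). The median log2 fold change of the 413 was -0.06, beside 0.09 for all sequences, and the smallest adjusted p among them was 0.0885. It belonged to the 32 nt fragment of rank 30 (log2 fold change -3.86, SE 1.01), with 32 and 498 reads in WT and 34 and 33 in KO. The 38 nt fragment of rank 261 shared it (-4.48, SE 1.18), with 7 and 28 reads in WT and 3 and 0 in KO. The filter on low counts could be passed through the reads of either group alone. Rank 261 passed through its WT reads, so its fold change is bound up with that filter. The same limit holds for other tested fragments near 0 in a group. Of the 775 fragments seen in all libraries, 155 (20%) had both KO libraries below both WT libraries in CPM and 188 (24.3%) above, beside 18.8% and 22.2% of all 4896 sequences seen in all libraries.

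No fragment differed from another 28S fragment of its length by 1 base, although 51, 64, 50 and 59 of the 78 possible variants of the rank 1 fragment (1 base changed) were in WT replicates 1 and 2 and KO replicates 1 and 2. All of these had another annotation or none. Over all 28S fragments, sequences 1 base away held 1484 and 8077 reads in WT, and 3875 and 4090 in KO. Per 100 reads of 28S this was 2.86 and 2.08 in WT, and 2.85 and 2.61 in KO. Between 76.9% and 87.4% of these reads were without annotation, and 11.6% to 19.97% were annotated as piRNA, a class of small RNA of the germ line. In WT replicate 2 they made up 9.65% of the reads of the piRNA class and 11.2% of the unannotated reads, against at most 3.14% and 3.63% in the other libraries. Counting them as 28S moved its share to 25.9% and 56.3% in WT, and 19.9% and 21.6% in KO.

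The 18S, 5.8S and 45S names each had a smaller share in their leading fragment than 28S. The leading fragment of 18S held 9.93% and 13.9% of 18S reads in WT, and 6.08% and 5.23% in KO, far below that of 28S in each library. For 5.8S, the small rRNA that pairs with 28S, it held 16.3% and 37.3% in WT, and 20.4% and 19.96% in KO. The 5.8S class had 3.94% and 7.04% of library reads in WT, and 4.25% and 3.81% in KO, so that it too was highest in WT replicate 2. The ratio of 28S to 5.8S reads was 6.39 and 7.84 in WT, and 4.55 and 5.52 in KO. The 18S class was level on the library total (2.79% and 2.84% in WT, 2.97% and 2.84% in KO). As a share of the reads that were not 28S it was 3.72% and 6.33% in WT, and 3.68% and 3.59% in KO. By reads, 75.6% to 86.4% of 18S and 0% of 5.8S matched the genome. The log2 fold changes were -0.16 (SE 0.43) for 18S, -0.72 (SE 0.55) for 5.8S and 0.22 (SE 0.44) for 5S, with adjusted p of at least 0.934 (edgeR). Without WT replicate 2 those of 18S and 5.8S were 0.14 and 0.11, the opposite sign. Fragments of the 45S name, the common precursor, had 1.09 (SE 0.41, adjusted p = 0.710, edgeR). The leading fragment of 45S held 26.3% and 18.6% of its reads in WT, and 21.8% and 23.9% in KO. The 10 leading fragments of 45S in each library held 84.5% and 85.5% of its reads in WT, and 83.3% and 83.9% in KO, beside 88.1% and 93.6% in WT and 81.6% and 82.9% in KO for 28S. The 45S name had only 56 to 223 distinct fragments per library, far fewer than 28S. A test of the difference between 28S and these classes was not made.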

How the data were processed

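Small RNA of mouse sperm was measured in 4 libraries (2 WT, 2 KO), grouped by their titles. The read counts were deposited by the authors as 1 line per distinct sequence with its length, a genome-match flag and an annotation, per the file headers. The aligner, mismatches allowed, annotation tool and library kit for these files are not given in the sources used here, and the submitters' processing notes name mm10 and GRCm38 without roles. All lines were used as deposited. The members and lists were chosen with earlier results of these data known. CPM used library totals, except in fits.

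Reads were summed by first annotation name (leaving out unannotated reads, 8.71% to 20.4%) and per sequence. Each table was fitted in edgeR 4.0.16 (R 4.3.3) by its quasi-likelihood test, with genotype as the only term. That test reports no SE. The SE given with an edgeR log2 fold change is its absolute value divided by the square root of the F statistic. Low counts were filtered with filterByExpr, scaling was TMM, p-values were adjusted by Benjamini-Hochberg over the table, and the threshold was 0.05. The code was tested on simulated data. limma 3.58.1 and DESeq2 1.42.0 were alternatives. Values per library were compared by exact two-sided permutation tests. Expected fragment numbers at equal reads came from the hypergeometric formula. Fragments named were the 10 leading by mean CPM, the 3 leading starts and ends, and lengths with 10% or more of reads; the 20 and 30 nt lengths, ranks 30 and 261, the 8 stretches and the neighbours at 1 base were chosen after their values were seen. Alternatives are in the closing section. No reference sequence of the 28S rRNA was used, so positions along it are not given. No 2 libraries agreed within sampling noise (chi-square per degree of freedom of at least 18.9).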

Additional observations from a re-analysis of the deposited data

How the results depend on the processing

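The 28S class was at an adjusted p above 0.05 in all 19 alternatives and was lower in KO in 17 of them. It was higher when only genome-matching 28S fragments (log2 fold change 0.16) or only sequences of 30 nt or longer (0.18) were counted. Leaving out 1 library gave -1.86 to -0.23, and the replicate block gave -1.07 (adjusted p = 0.995). The median over all names was -0.005 with TMM, -0.19 with RLE scaling and 0.26 with library totals, under which 28S was at -1.49 and -0.89. Library sizes without nuclear rRNA gave -1.70. The share of 28S reads, KO minus WT, was 1.10 percentage points when only genome-matching fragments were counted and 0.79 without the leading start, the latter chosen after seeing the data. Leaving out 1 library gave -35.0 to -5.01. The count of called fragments was 3 with DESeq2, 2 with annotated sequences only, 0 to 86 when 1 library was left out (86 without WT replicate 1) and 0 with the replicate block. With annotated sequences only, 424 fragments of 28S were tested, and 0.472% were called, 0 higher and 2 lower. Of all 2527 sequences in that fit, 0.712% were called, 15 higher and 3 lower. The mean read length, KO minus WT, was 0.27 nt. It was -0.24 with each fragment counted once, -0.10 without the leading start and -0.076 to 0.61 when 1 library was left out (-0.076 without WT replicate 2). The share held by the 10 leading fragments was higher in KO by 4.33 points over genome-matching fragments and by 1.03 without the leading start, against -8.38, and -11.1 to -5.69 without 1 library. The part of the difference carried by the 10 leading fragments, 101%, was 75.3% for 1 fragment, 56.0% over genome-matching fragments, and 99.7% to 111% without 1 library. The genome-matching share (8.32 to 13.0 points without 1 library) was higher in KO in all 8 alternatives. The number of fragments at equal reads was higher in KO in all 9, by 617 to 1867 without 1 library. The 1867 came without WT replicate 1 and so at a larger number of reads. The excess was 51.2 over genome-matching fragments and 200 without the leading start, against 966 in the main setting. In each tally, the alternative with 28S named anywhere in the annotation took the same fragments as the main setting and could not differ. The cause of the changes between settings was not tested. Deviations of same-numbered libraries correlated at -0.07. With 2 libraries per group this is a single correlation, which cannot show whether they were paired. WT replicate 1, with 205993 reads, was the shallowest library, so levels there rest on fewer reads.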
